A study of Mus musculus with 2 samples.

Results

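The genes Cd4, Cd8a, Cd8b1, Il7r, Tcf7, Lef1, S1pr1, Foxp3, Gata3 and Tbx21, by which mouse T cells are commonly divided into subsets and naive states, were followed cell by cell in immune cells of the pressure-overloaded mouse heart. They were taken by symbol, and all 10 members were among the 31192 genes of the transcriptome matrix. T cells were defined without them, as cells with at least 2 of the 4 T cell receptor complex genes Cd3d, Cd3e, Cd3g and Trac at 50 CPM or more (CPM, each cell's counts scaled to a common total). By this rule 99 of 857 kept cells were T cells (11.6%, 95% exact binomial interval 9.49 to 13.9%), and the other 758 served as the comparison. All cells came from hearts of Cdh5-CreERT2;REFLEX mice given tamoxifen and operated by transverse aortic constriction (TAC), which narrows the aorta and loads the left ventricle. Cdh5-CreERT2 is a Cre recombinase that tamoxifen activates in endothelial cells, and REFLEX is a reporter that marks interacting cells with GFP. CD45+ and CD45- cells, each with and without GFP, were sorted and pooled into 1 library, so every group below is a group of cells of that library. The labels give neither the number and age of the mice nor the time after TAC, and no library from unoperated hearts was analysed here.

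Cd4 and the 2 chains of CD8, encoded by Cd8a and Cd8b1, are coreceptors that bind class II and class I MHC molecules, and most mature T cells keep only one of them. Tcf7 (TCF-1) and Lef1 are related DNA-binding factors of T cell development that stay high in naive T cells and decline in effector cells. Il7r is the interleukin-7 receptor chain through which resting T cells receive survival signals, and S1pr1 is the sphingosine 1-phosphate receptor that lets them leave lymphoid organs. Foxp3, Gata3 and Tbx21 (T-bet) are the lineage factors of regulatory, type 2 and type 1 helper T cells, and Gata3 and Tbx21 also act in innate lymphoid and NK cells.

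Promoter windows of 300 bases, 250 before to 50 after the transcription start, were available from RefSeq (GRCm38.p6) for 7 of the 10 members and 12 starts in all. They were searched on both strands for the TCF/LEF core CTTTGA, the RUNX core TGTGGT and the GATA core AGATAA, which do not overlap in the windows shown. These letters occurred in 16.0%, 16.8% and 11.2% of all 32851 promoter windows of the same length. Among the 12 member windows, 1 held the TCF/LEF core, 1 the RUNX core and 2 the GATA core. The windows with a TCF/LEF or RUNX match are printed with all matches in capitals, since they belong to Lef1 and Il7r, 2 of the genes that mark the naive state below. The Lef1 window is that of the most downstream of its 4 listed starts, at chr3:131156044-131156343 on the plus strand, and carries the TCF/LEF core at 2 places and the GATA core at 1. The Il7r window lies at chr15:9529827-9530126 on the minus strand.
Lef1: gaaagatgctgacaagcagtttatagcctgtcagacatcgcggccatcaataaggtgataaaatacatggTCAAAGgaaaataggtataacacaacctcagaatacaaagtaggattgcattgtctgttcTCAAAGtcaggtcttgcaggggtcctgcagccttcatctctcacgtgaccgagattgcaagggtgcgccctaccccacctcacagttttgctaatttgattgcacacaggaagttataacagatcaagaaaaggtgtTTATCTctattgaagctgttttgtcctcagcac
Il7r: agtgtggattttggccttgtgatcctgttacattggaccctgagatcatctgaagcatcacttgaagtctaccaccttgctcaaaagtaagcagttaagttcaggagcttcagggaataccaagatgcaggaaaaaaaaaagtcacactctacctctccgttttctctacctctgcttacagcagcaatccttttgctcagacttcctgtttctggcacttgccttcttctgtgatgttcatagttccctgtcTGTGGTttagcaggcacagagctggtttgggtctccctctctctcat
A match is a run of letters in these windows and was not set against any binding data. The table's 2 Tcf7 windows may stand at starts within the coding sequence rather than at its main promoter.

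The library held 878 cells, of 20000 loaded, with 28407 to 706332 estimated counts each, and no cell barcode occurred more than once. T cells had a median of 87657 counts and a median mitochondrial share of 3.04%, and the other cells 75954 counts and 2.57%. Of the T cells, 63 held all 4 rule genes, 25 held 3 and 11 held 2, while 20 other cells held 1. The 11 cells just inside the rule had 1061 CPM of the receptor gene Trbc2 and 887 CPM of Il7r, and the 20 cells just outside it 164 and 157 CPM. All 99 T cells held 3 or more of the 12 T cell markers. Markers of another class, 3 or more, were present in 14 T cells, of which 8 fell in the Cd8 group described below. S100a8, an abundant neutrophil transcript, was above 0 in 99 of 99 T cells at 123 CPM, so counts outside a gene's own cells can be free RNA. It was at 50 CPM in 89 of the T cells, S100a9 in 78 and the B cell marker Ighm in 22. Counts of abundant transcripts outside their own cells can thus pass the cut, and S100a8 and S100a9 are both neutrophil markers used here. None of the 10 members reached 50 CPM in any of 268 neutrophil-like cells, where a limit of 3 cells allows a share of up to 1.12%, and their summed levels there were 0.270 to 1.58 CPM. Intervals throughout cover counting error only, and with 1 library no difference has a replicate check.

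T cells held more of 9 of the 10 members than the other cells did, the exception being Foxp3. Past the rule used here for "higher" (a ratio of summed CPM of at least 2 whose 95% counting interval excludes 1, with the gene above 0 in at least 5 cells of the higher group) were 15.6% of all 18243 genes compared. Il7r was at 596 CPM in T cells against 18.5 CPM in other cells. Tcf7 was at 50 CPM in 77 of 99 T cells against 4 of 758 other cells, the most T cells of any member, with 320 against 1.73 CPM, a ratio of 185 (158 to 219). Per-cell values of Tcf7 in T cells ran from 0 to 2025 CPM with a median of 259 CPM. After every cell was thinned to 25000 counts, Tcf7 still had a count in 80.8% of T cells, Il7r in 69.7%, S1pr1 in 66.7% and Lef1 in 60.6%. Each of these 4 genes was thus present in most T cells but at 0 in 13 to 32 of them.

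The coreceptor genes were nearly absent elsewhere. Cd4 reached 118 CPM in T cells and 0.891 CPM in other cells, Cd8a 129 and 0.694 CPM, and Cd8b1 316 and 0.984 CPM, and each was at 50 CPM in 1 of the 758 other cells. The Cd4 and Cd8a cells outside the T cells were conventional dendritic cell-like, a class in which both genes are known to be used.

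S1pr1, Lef1, Tbx21 and Gata3 were also found in other lymphocytes. S1pr1 stood at 305 CPM (295 to 316) in T cells and 286 CPM (276 to 296) in 160 B cell-like cells, 97 of which held it at 50 CPM, and the 2 intervals overlap. Lef1 was at 256 CPM in T cells and 108 CPM in 27 NK cell-like cells, where 10 cells held it. Tcf7 was at 50 CPM in 1 of the 27 NK cell-like cells, and that cell supplied 89.3% of the counts behind their 14.3 CPM. Tbx21 ran the other way: 31.0 CPM in T cells against 289 CPM in NK cell-like cells, with 9 of 99 and 19 of 27 cells at 50 CPM. Gata3 was at 56.0 CPM (51.5 to 60.8) in T cells and 62.3 CPM (51.7 to 74.3) in NK cell-like cells, where 4 cells carried it; without the top cell of each class the values were 50.1 and 43.6 CPM. Among the other classes of at least 20 cells Il7r was highest in conventional dendritic cell-like cells, at 58.4 CPM, and 1 cell supplied 44.0% of those counts. In order of level, 7 members were highest in T cells among classes of at least 20 cells, and Gata3 and Tbx21 in NK cell-like cells.

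**Figure D1:**
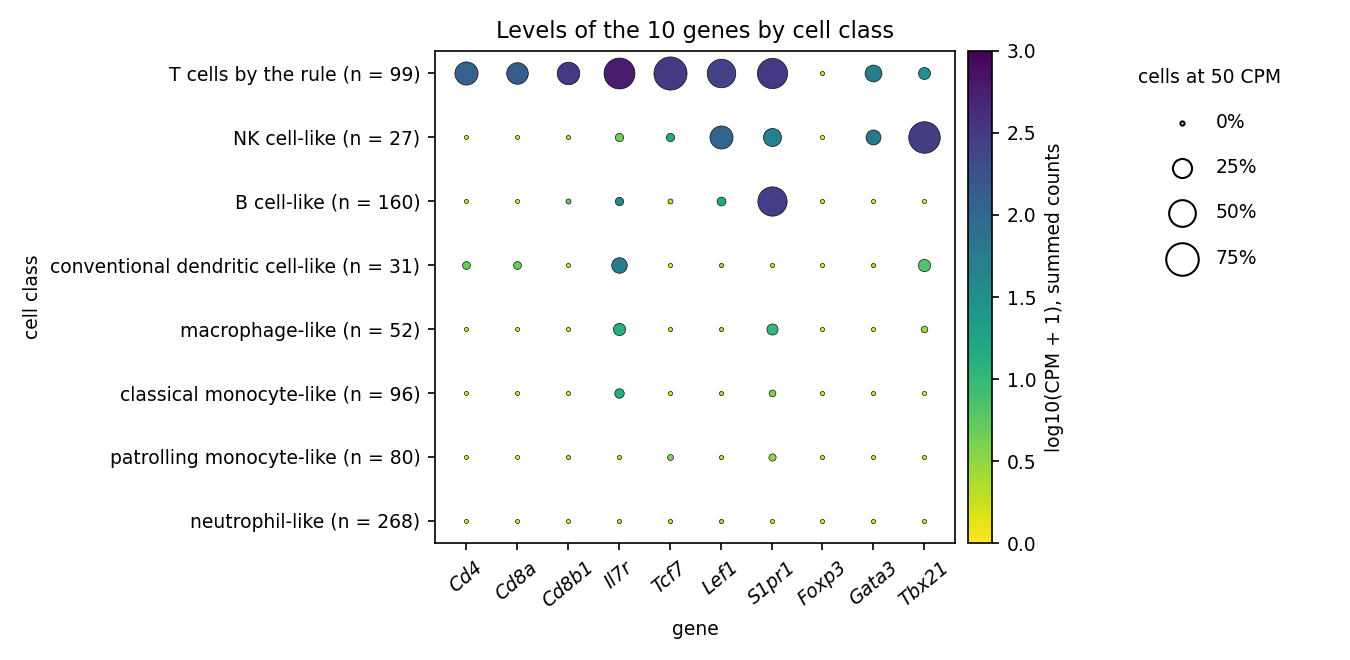
Summed level (colour, log10 of CPM + 1) and share of cells at 50 CPM (dot area) of the 10 genes (horizontal axis) in 8 cell classes (vertical axis, with cell numbers). The T cell row is filled except at Foxp3; S1pr1 recurs in B cell-like cells, and Lef1 and Tbx21 in NK cell-like cells.

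Another 5 cells clustered with the T cells but did not meet the rule. None of them held Cd4, Cd8a or Cd8b1, while 4 held Il7r at 300.1 to 1173 CPM. Gata3 was at 1154 and 525 CPM in 2 of them, where the highest T cell had 800.01 CPM, together with Il1rl1 at 318 and 195 CPM. Il1rl1 encodes the interleukin-33 receptor, and these 2 were the only cells of the library with 3 or more markers of type 2 innate lymphoid cells.

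Coreceptor transcripts divided the 99 T cells into 33 with Cd8a or Cd8b1 and no Cd4 at 50 CPM (the Cd8 group, 33.3%, 24.2 to 43.5%), 30 with Cd4 and neither Cd8 chain (the Cd4 group, 30.3%, 21.5 to 40.4%), 7 with both and 29 with no coreceptor at this level. The rule itself keeps Cd4 under 50 CPM in each cell of the Cd8 group, and both CD8 chains in each cell of the Cd4 group. As a description, summed Cd4 was 1.5 CPM in the Cd8 group against 313 CPM in the Cd4 group, and Cd8b1 was 753 against 0.301 CPM. The 2 chains of CD8 were found together in 27 T cells, Cd8a alone in 5 and Cd8b1 alone in 8. Across the 99 T cells Cd8a and Cd8b1 had a Pearson correlation of 0.75 in log2(CPM + 1), while Cd4 correlated at -0.23 with Cd8a and at -0.27 with Cd8b1. Some values lay near the cut: of the 46 T cells with Cd4 above 0, 4 had it at 50 to 100 CPM and 9 under 50 CPM. Cd8a was at 50 to 100 CPM in 4 T cells and above 0 but under 50 CPM in 4, and Cd8b1 in 2 and 4.

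The 29 T cells without a coreceptor transcript at 50 CPM were not empty of the other members. Il7r was present in 23 of them at a summed 856 CPM, Tcf7 in 23 at 348 CPM, S1pr1 in 21 at 351 CPM and Lef1 in 19 at 381 CPM. Their Cd4, Cd8a and Cd8b1 levels were 2.95, 0 and 0.737 CPM.

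**Figure D2:**
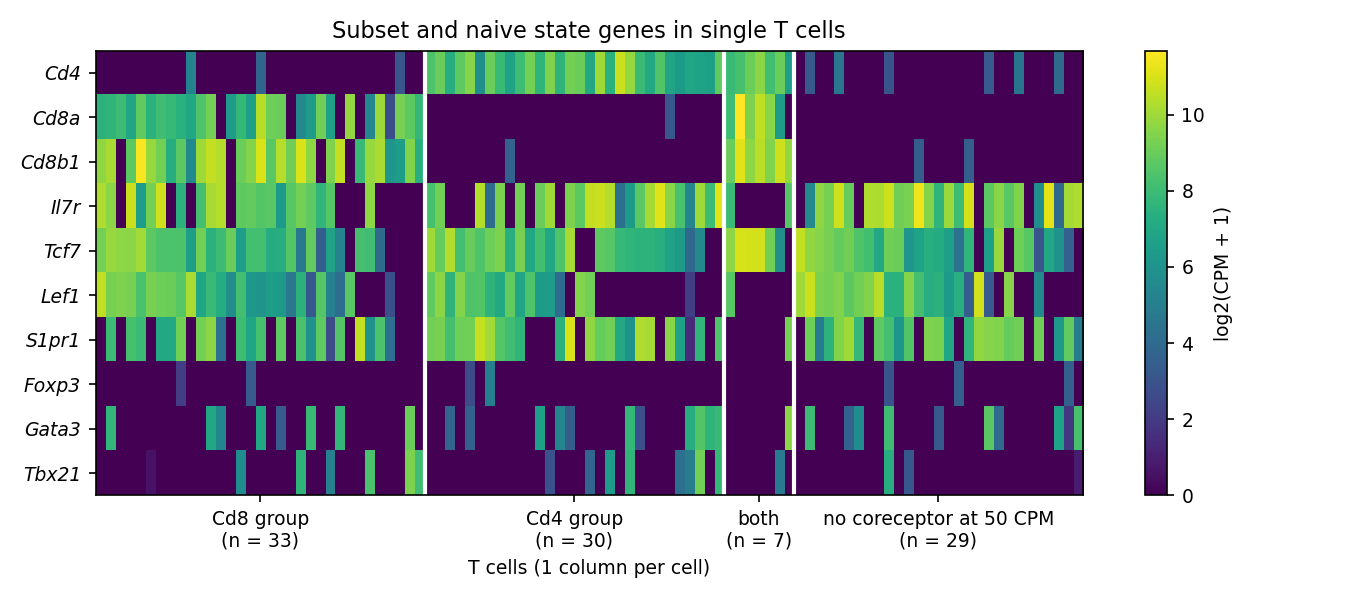
The 10 genes (rows) in each of the 99 T cells (columns), coloured by log2(CPM + 1) and ordered by coreceptor group and then by Tcf7 plus Lef1. Of the 7 cells with both coreceptors, 6 hold Tcf7 at 50 CPM, and most are dark for Il7r, Lef1 and S1pr1.

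The 7 T cells that held Cd4 together with a CD8 chain stood apart in the other members. Their Cd4 ran from 93.0 to 799 CPM with a median of 310.1 CPM, and Cd8b1 from 516 to 2262 CPM with a median of 874 CPM. Holding both at 50 CPM was the entry rule for these cells. The cell with the lowest Cd4, at 93.0 CPM, had Cd8a at 0. Tcf7 was at 50 CPM in 6 of the 7, with a median of 810 CPM and a highest value of 2025 CPM, against a median of 215 CPM and a highest value of 1548 CPM in the other 92 T cells. In contrast, Il7r was present in 2 of 7 against 65 of 92, Lef1 in 1 of 7 against 56 of 92, and S1pr1 in 1 of 7 against 63 of 92. In 5 of the 7, then, Tcf7 was present with none of Il7r, Lef1 and S1pr1.

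Because Cd4 and Cd8 are used together by developing thymic T cells, 7 genes of that stage were then read in these cells; this list was chosen after their values were seen, and the counts are a description. At least 3 of these 7 genes were at 50 CPM in 6 of the 7 cells and in 0 of the other 92 T cells, 78 of which had none. Rag1, a component of the recombinase that assembles T cell receptor genes, was at 79.9, 108, 73.1 and 113 CPM in 4 of the 7 cells and at 0 in the other 3. It reached 50 CPM in none of the other T cells and in 1 of the 758 other cells. Dntt, the terminal transferase that adds bases at receptor gene joints, was at 50 CPM in 5 of 7 against 1 of 92, and at 1456 CPM in its highest cell. Arpp21, a gene of immature thymocytes, was at 50 CPM in 4 of 7 against 0 of 92. The chemokine receptor gene Ccr9 was present in 6 of 7 against 10 of 92, and Cd24a, a surface protein gene that mature T cells reduce, in 5 of 7 against 10 of 92. Cd24a was also at 50 CPM in 315 of the 758 other cells, at a summed 205 CPM. Rag2 and Ptcra, the pre-T cell receptor chain, were each present in 1 of 7 against 0 of 92. The cell without any of these genes had Gata3 at 800.01 CPM, Il7r at 391 CPM and S1pr1 at 633 CPM and no Tcf7. The 7 cells carried 3 different tag names and, in 1 case, the name doublet. Their median depth was 53130 counts against 91458 counts in the other T cells. Markers of another class, 3 or more, were found in 1 of the 7, and 9 of 10 NK cell markers were at 0 in all of them. The 5 plasmacytoid dendritic cell markers compared, of which Ccr9 is one, summed to 783 CPM in the 7 cells (27.9 to 2076 per cell, Siglech at 0), against 57.7 to 109 CPM in the other 3 coreceptor groups. B cell markers summed to 276 CPM in the 7 cells, with 3 of 10 at 0, against 40.7 to 493 CPM. The part of depth, of these other markers and of joined cells in this pattern was not tested, nor was the tissue from which these cells came.

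**Figure D3:**
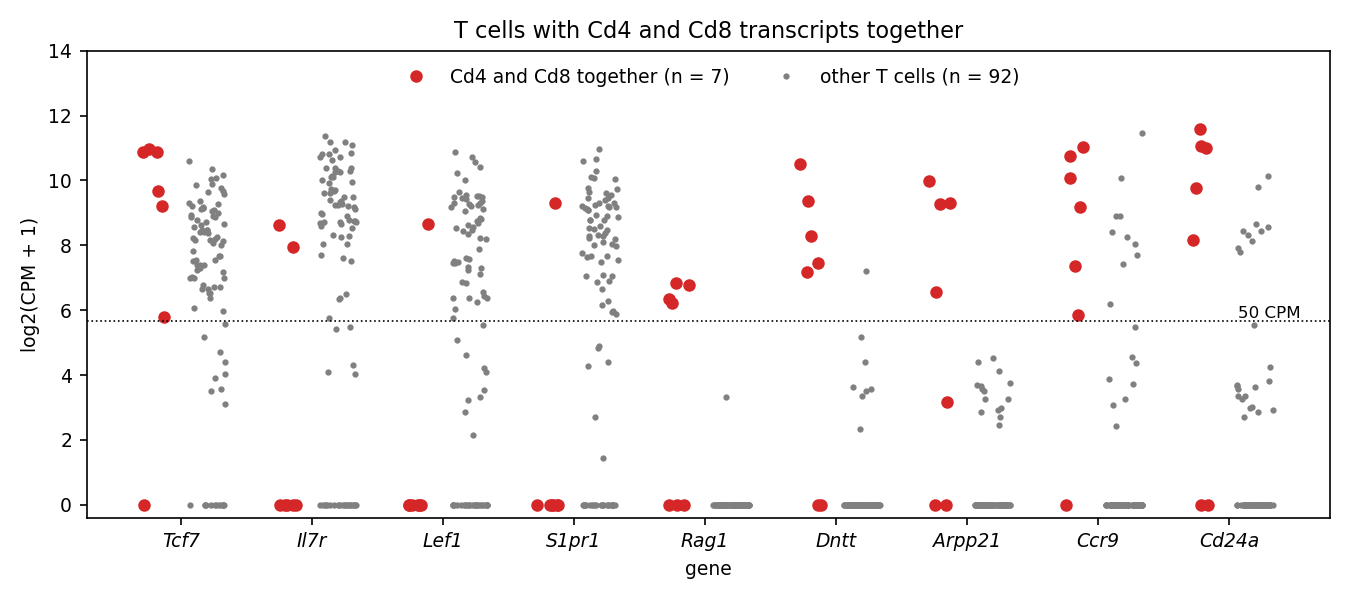
Per-cell log2(CPM + 1) (vertical axis) of 4 members and 5 genes of thymic T cell development (horizontal axis) in the 7 T cells with Cd4 and Cd8 together (red, left of each pair) and in the other 92 (grey); the dotted line is 50 CPM. Rag1 and Arpp21 reach the line in red cells only, and Il7r, Lef1 and S1pr1 lie at 0 in most red cells.

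Between the Cd8 and Cd4 groups, few of the other members differed. Lef1 was higher in the Cd8 group and Gata3 lower, that is 1 of the 6 other members compared each way, where 13.9% of 8302 genes were higher and 17.3% lower. Lef1 was at 293 CPM in the Cd8 group against 129 CPM in the Cd4 group, a ratio of 2.28 (2.03 to 2.55), with 22 of 33 and 15 of 30 cells at 50 CPM. Its per-cell values ran from 0 to 1523 CPM with a median of 116 CPM in the Cd8 group, and from 0 to 797 CPM with a median of 49.1 CPM in the Cd4 group, so the groups overlapped. Weighting each cell alike left means of 282 and 188 CPM, under the 2-fold rule. Gata3 was at 33.7 CPM in the Cd8 group against 69.4 CPM in the Cd4 group by summed counts, yet 6 cells of each group carried it and the means of cells, both about 45 CPM, had a log2 ratio of 0.00. S1pr1 was at 223 against 385 CPM and Il7r at 481 against 567 CPM, both short of the rule, although S1pr1 passed it when cells were weighted alike (224 against 475 CPM). Tcf7, at 279 against 262 CPM, and Tbx21, at 42.7 against 40.3 CPM, had ratios whose intervals included 1. For Tbx21, 1 cell supplied 56.0% of the Cd4 group's counts, and without that cell the log2 ratio was 1.21 (interval 0.77 to 1.67).

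Genes listed for the CD8 lineage and for regulatory T cells went with the coreceptors, and those for the CD4 lineage only in part. Of 6 CD8 lineage genes compared, 4 were higher in the Cd8 group and none lower: Ccl5, a chemokine gene, at 6218 against 1798 CPM, the granule gene Nkg7 at 610 against 149 CPM, the receptor gene Klrd1 at 417 against 76.4 CPM, and Ctsw. Runx3, also on that list, was not among the 4. The median log2 ratio of the list was 2.10, beside -0.13 over all genes compared, of which 13.9% were higher. Of 5 CD4 lineage genes, 2 were lower and 3, Zbtb7b among them, were not past the rule, where 17.3% of all genes were lower. The median log2 ratio of this list was -0.57. Tnfsf8 was at 54.5 against 350.2 CPM and Cd40lg, the ligand by which helper cells act on B cells, at 0.272 against 56.2 CPM. For Cd40lg, 3 of the 30 cells of the Cd4 group reached 50 CPM, and 1 cell supplied 72.3% of the counts. Among 11 genes of regulatory T cells compared, 8 were lower in the Cd8 group and none higher, where 17.3% of all genes were lower. The median log2 ratio of these 11 genes was -1.93. Tnfrsf4, which encodes the costimulator OX40, was at 8.43 CPM in the Cd8 group against 456 CPM in the Cd4 group, with 1 of 33 and 12 of 30 cells at 50 CPM, and 1 cell supplied 49.6% of the counts. Icos was at 129 against 435 CPM, the GITR gene Tnfrsf18 at 140.1 against 535 CPM, and the inhibitory receptor gene Ctla4 at 95.9 against 264 CPM. Of the 12 naive and recirculating genes, Txk and Klf3 were higher and 10 were not past the rule. Of 14 memory and effector genes compared, 4 were higher, Ccl5 and Nkg7 among them, and 4 lower, beside 13.9% and 17.3% of all genes. The 10 NK cell markers, which cytotoxic T cells partly share, summed to 802 CPM in the Cd8 group (0 to 18336 per cell, 1 of 10 at 0) against 75.8 CPM in the Cd4 group (0 to 1919 per cell, 3 of 10 at 0). Classical monocyte markers summed to 842 against 99.5 CPM, neutrophil markers to 487 against 199.7 CPM and B cell markers to 493 against 40.7 CPM, with medians per cell of 43.4 against 33.7 CPM, 176 against 198 CPM and 16.9 against 17.8 CPM. Cells with 3 or more markers of another class made up 8 of the 33 cells in the Cd8 group and 2 of the 30 in the Cd4 group. Without them the same 4 CD8 lineage genes were higher and the same 8 regulatory genes lower. Of the 5 CD4 lineage genes, 3 were then lower, Zbtb7b among them, with a median log2 ratio of -2.90 for the list. Lef1 was at 319.7 against 139.9 CPM, while its means of cells, 314 against 201 CPM, were under the 2-fold rule.

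Tcf7 and Lef1 were read together in the same cells. Both were at 50 CPM in 49 T cells (49.5%, 39.3 to 59.7%), Tcf7 alone in 28, Lef1 alone in 8 and neither in 14. Of the cells with Tcf7, 63.6% also held Lef1, while 8 of the 22 cells without Tcf7 did; of the cells with Lef1, 86.0% held Tcf7. The Pearson correlation of their log2 levels over the 99 cells was only 0.18, so joint presence was common but the levels varied separately. From the single shares of Tcf7 and Lef1, their product gives 44.3 cells with both, beside the 49 seen. Tcf7 without Lef1 was seen in 5 of the 7 cells with both coreceptors, in 11 of 30 cells of the Cd4 group and in 5 of 33 cells of the Cd8 group. Cells with both genes made up 19 of 33 in the Cd8 group, 13 of 30 in the Cd4 group and 16 of the 29 without a coreceptor.

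Of the 4 naive state genes Il7r, Tcf7, Lef1 and S1pr1, 26 T cells held all 4, 36 held 3, 21 held 2, 11 held 1 and 5 held none. At least 3 were thus present in 62.6% of T cells (52.3 to 72.1%). That level was reached by 20 of 33 cells in the Cd8 group, 21 of 30 in the Cd4 group, 20 of 29 without a coreceptor and 1 of the 7 with both. Il7r and S1pr1 met in 49 cells, 73.1% of the cells with Il7r, and had the highest correlation among the 4, at 0.28. The product of their single shares gives 43.3 cells. For Il7r and Tcf7 that product was 52.1 beside 54 cells seen, and for Tcf7 and S1pr1 49.8 beside 52. The share of cells with at least 3 genes was not set against such a product. Cd44, an adhesion receptor gene raised on antigen-experienced T cells, was present in 4 of the 26 cells with all 4 genes. It was present in 12 of the 36 with 3, 6 of the 21 with 2, 4 of the 11 with 1 and 3 of the 5 with none.

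**Figure D4:**
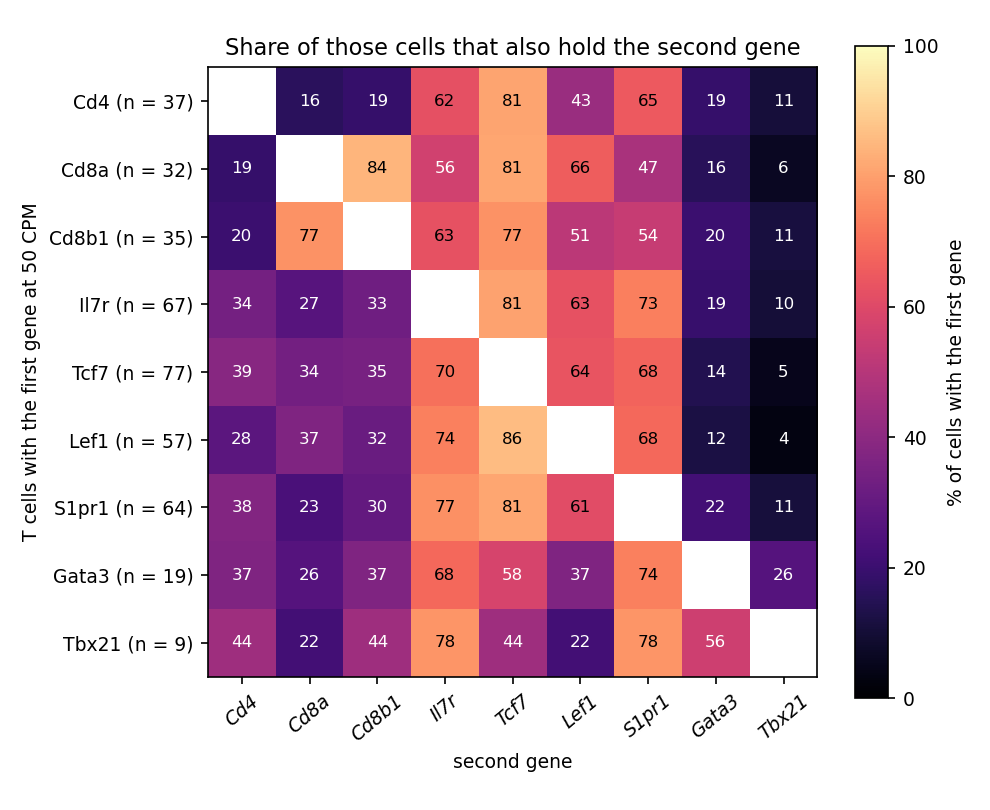
Share (%) of T cells with the first gene at 50 CPM (rows, with their number) that also held the second gene (columns). Cd8a and Cd8b1 share 77.1 to 84.4% of their cells, Cd4 shares 16.2% and 18.9% of its cells with them, and Lef1 cells rarely hold Tbx21 (3.51%).

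Genes of the naive state and of effector cells lay on opposite sides of the Tcf7 and Lef1 division. In the 49 cells with both genes, 11 of 12 naive and recirculating genes were higher than in the 14 cells with neither, and none was lower, where 26.6% of 8474 genes were higher and 8.51% lower. The median log2 ratio of the list was 1.86, beside 0.17 over all genes compared. Satb1, a chromatin organiser of T cells, was at 689 CPM in cells with both against 69.7 CPM in cells with neither, a ratio of 9.89 (8.29 to 11.9), with 44 of 49 and 5 of 14 cells at 50 CPM. Klf2, the factor that drives S1pr1, was at 1319 against 630 CPM, although its means of cells, 1424 and 1145 CPM, were under the 2-fold rule. The lymph node receptor gene Ccr7 was at 358 against 112 CPM, and Foxp1, a factor of quiescence, at 314 against 81.3 CPM. Among 14 memory and effector genes compared, 9 were lower in the cells with both and none was higher, with a median log2 ratio of -1.99. Lgals1, a lectin gene, was at 256 against 2309 CPM, S100a6 at 235 against 1755 CPM, and Ccl5 at 1708 against 4506 CPM. Id2, a factor of effector differentiation, was at 175 against 587 CPM, but 1 cell supplied 39.7% of its counts and the means of cells, 183 against 299 CPM, were under the rule. S100a6 is not particular to T cells and was at 2531 CPM in the cells that were not T cells. Classical monocyte markers summed to 245 CPM in cells with both (0 to 3919 per cell) against 807 CPM in cells with neither (0 to 9291 per cell), and neutrophil markers to 192 CPM (85.2 to 332 per cell) against 802 CPM (91.6 to 7100 per cell), with none of these markers at 0 in either group. Without the T cells that held 3 or more markers of another class, Lgals1, S100a6 and Id2 were still lower in the cells with both; the part of the remaining myeloid counts was not tested.

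The helper lineage factors were lower where Tcf7 and Lef1 were together. Gata3 was at 27.4 CPM in cells with both against 174 CPM in cells with neither, a ratio of 0.157 (0.128 to 0.192), and was present in 7 of 49 against 8 of 14 cells. Tbx21 was at 7.32 against 90.7 CPM, with 1 of 49 against 4 of 14 cells at 50 CPM, and 1 cell supplied 36.2% of its counts. Both were lower also when cells were weighted alike, Gata3 at 24.9 against 200.1 CPM and Tbx21 at 4.44 against 127 CPM. S1pr1, at 308 against 140.2 CPM, and Cd8b1, at 351 against 153 CPM, were higher by summed counts, but their means of cells, 321 against 213 CPM and 349 against 333 CPM, were under the rule. Il7r was at 638 against 379 CPM, Cd8a at 131 against 77.7 CPM and Cd4 at 95.7 against 79.0 CPM, none of them past the rule.

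Signalling genes linked to Il7r and S1pr1 were read in the same split. Of 9 interleukin-7 receptor pathway genes compared, 4 were higher in cells with Tcf7 and Lef1 and 2 lower, beside 26.6% and 8.51% of all genes. The survival gene Bcl2 was at 285 CPM in cells with both against 48.5 CPM in cells with neither, and the kinase gene Jak1 at 541 against 248 CPM, with Stat5a and Stat5b also higher. Cish, a feedback inhibitor of cytokine receptors, was at 11.3 against 157 CPM, and the kinase gene Pim1 at 479.9 against 968 CPM, where the means of cells, 463 against 782 CPM, were under the rule. Of 4 sphingosine 1-phosphate pathway genes compared, Klf2 and Sgpl1 were higher, where 26.6% of all genes were, and S1pr4, a second receptor of lymphocytes, was at 45.0 against 52.9 CPM. NK cell markers summed to 89.1 CPM in cells with both (0 to 1291 per cell, 1 of 10 at 0) against 557 CPM in cells with neither (0 to 11015 per cell, 4 of 10 at 0). Cells with 3 or more markers of another class were 4 of the 49 with both and 3 of the 14 with neither. Without them 10 of 12 naive genes were higher and 8 of 14 effector genes lower. Ccl5, at 1886 against 2683 CPM, and Klf2, at 1299 against 689.9 CPM, were then short of the rule, as was Tbx21, at 8.09 against 70.7 CPM, since 4 of the remaining cells with neither carried it.

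**Figure D5:**
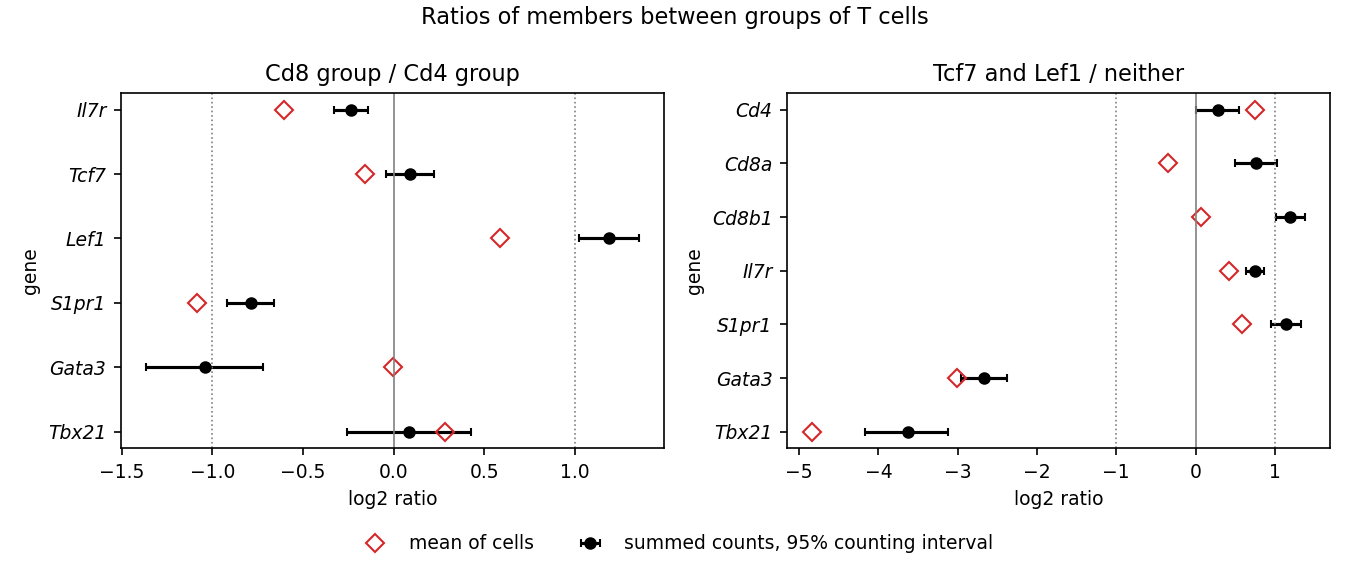
Log2 ratios of member genes between the Cd8 and Cd4 groups (left) and between cells with Tcf7 and Lef1 and cells with neither (right), from summed counts with 95% counting intervals (black) and from means of cells (red diamonds). Dotted lines mark 2-fold; Gata3 and Tbx21 lie far to the left in the right panel by both measures, while Lef1 and Gata3 in the left panel depend on the measure.

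Foxp3 marked no group of these T cells. It reached 50 CPM in 0 of 99 T cells, and a limit of 3 cells of the total allows a share of up to 3.03%. Its summed level was 0.889 CPM in T cells against 0.487 CPM in other cells, a ratio of 1.83 (0.784 to 3.79). It was above 0 in 7 T cells, 2 of them in the Cd4 group, and its highest value was 4 counts, or 31.9 CPM. Only 32.9% of its values above 0 were whole numbers, against 100% for S1pr1, the rest being fractions of a count. Even so, 14 T cells held 5 or more of 12 other regulatory T cell genes at 50 CPM, 8 of them in the Cd4 group, 6 without a coreceptor and none in the Cd8 group. Among these 14, Il7r was present in 12, S1pr1 in 10, Tcf7 and Gata3 in 7 each and Lef1 in 4, and Foxp3 was above 0 in 2. Activated T cells use several genes of that list too, so these cells are not named.

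Gata3 was present in 19 T cells (19.2%, 12.0 to 28.3%) and Tbx21 in 9 (9.09%, 4.24 to 16.6%), with 5 cells holding both. Of the 19 Gata3 cells, 6 were in the Cd8 group, 6 in the Cd4 group, 6 without a coreceptor and 1 with both. Values ran up to 800.01 CPM, with a median of 221 CPM among the cells that held it. Rora, a nuclear receptor gene shared by type 2 and tissue lymphocytes, was present in 13 of 19 Gata3 cells against 19 of the 80 other T cells, and Cd44 in 11 of 19 against 18 of 80. Lef1 was present in 7 of 19 against 50 of 80. Il1rl1 was present in 1 of 19 against 1 of 80. In the 9 Tbx21 cells Ccl5 and Nkg7 were each present in 7, against 17 and 24 of the 90 other T cells, Tcf7 in 4 against 73 and Lef1 in 2 against 55. Ifng, the type 1 cytokine gene, was present in 1 of 9 against 3 of 90, and Ncr1, an NK receptor gene, in 0 of 9 against 1 of 90.

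The genes whose levels were most like those of each member over the 99 T cells were ranked by Pearson correlation of log2(CPM + 1) among 4765 genes at 50 CPM in at least 10 T cells. All share the cells and their depth, and values under 0.4 are not named. Cd8a was followed by Cd8b1 and then by Klrd1 at 0.45. Tcf7 was nearest to Satb1 at 0.44, and S1pr1 to Ms4a6b at 0.45, Klf2 at 0.44 and Ms4a4b at 0.43. Lef1 was nearest to Rapgef6 at 0.44, Chd3 at 0.42 and Zfp281 at 0.41, and Gata3 to Ascc1 at 0.48. Il7r was nearest to Olfr1033 at 0.48 and to the ribosomal protein gene Rpl13a at 0.47. No gene reached 0.4 with Cd4, and Foxp3 and Tbx21 were in too few cells to be ranked.

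The tag names in the cell identifiers divided the T cells into 45 under A965, 28 under A953, 23 under A951, 1 under A952 and 2 named doublet. Which sorted fraction a tag stood for was not stated in the labels or files, and the tags are given as names only. Tcf7 was present in 38 of 45 A965, 20 of 28 A953 and 17 of 23 A951 T cells, and S1pr1 in 28, 22 and 13. Lef1 was present in 30 of 45 (66.7%, 51.1 to 80.0%) A965 cells, 11 of 28 (39.3%, 21.5 to 59.4%) A953 cells and 14 of 23 (60.9%, 38.5 to 80.3%) A951 cells. These intervals overlap, and every member except Foxp3 was found under each of these 3 tags.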

How the data were processed

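Whole-transcriptome single-cell libraries were made on the BD Rhapsody platform with TAS-Seq, per the labels' protocols. The deposited table holds estimated counts per gene and cell, 69.8% of the values above 0 being whole. The submitters' processing notes name cutadapt 4.1, STARsolo 2.7.10b, R 4.3.1 and GRCm39, without the order of steps. The members and gene lists were chosen with earlier results of these data known.

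Cells with at least 500 counts, 200 genes and at most 25% mitochondrial counts were kept, which left out 21. CPM are counts divided by the cell's total. Clusters (scanpy 1.11.5, 2000 variable genes without the members, 30 components, 15 neighbours, Leiden resolution 1) were named from marker lists, and the class names may differ from the study's. Doublets were not called anew; cells named doublet were kept and left out as an alternative. Groups were compared by summed CPM with exact Poisson or conditional binomial 95% intervals and by means of cells, for genes with at least 50 summed counts. The ratio was tested on simulated data. All 10 members are named; list genes are named where at 50 CPM in either group, up to 4 per list in order of level, and others only by name. The hashtag table was not used.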

Additional observations from a re-analysis of the deposited data

How the results depend on the processing

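Under 13 alternative settings, 117 of 126 shares and counts stayed within the counting interval of the reported share or within 1.5 times the reported count. One of the settings, leaving out the 7 cells with both coreceptors, was chosen after seeing the data. T cells made up 10.1 to 12.2% of kept cells, the Cd8 group 29.4 to 35.9% of T cells, the Cd4 group 25 to 32.9%, cells with both 6.06 to 7.95% and Gata3 cells 17.0 to 20.6%. The share with Tcf7 and Lef1 was 38.4% at 100 CPM. Of the members compared between the Cd8 and Cd4 groups, 2 passed the 2-fold rule as reported, 0 at 20 CPM, and 1 at 100 CPM, with at least 3 of the 4 T cell genes, with cells weighted alike and with cells thinned to 25000 counts. The 2 reported, Lef1 and Gata3, were both under 2-fold with cells weighted alike, at log2 ratios of 0.59 and -0.003. With thinned cells Lef1 was at 0.34 and Gata3 at 0.38, again both under it. Between cells with Tcf7 and Lef1 and cells with neither, 4 passed as reported and 2 without T cells that hold markers of another class, with cells weighted alike and with thinned cells. The log2 ratio of Gata3 between the Cd8 and Cd4 groups was 0.38 with thinned cells, against -1.04 as reported; the cause was not tested. Of 241 member ratios, 164 lay within the reported counting interval. With cells weighted alike 20 of 22 moved out of it, and with thinned cells 17 of 21 moved and 1 was reversed. With cells named doublet left out, and with the mitochondrial limit at 10% or removed, 22 of 22 stayed within it. Of the 241 ratios, 29 moved by over 1.5 times and 8 had the opposite sign. Besides Gata3 these were Tcf7 at 3 settings, Il7r and Tbx21 between the Cd8 and Cd4 groups, and Cd8a and Cd4 in the other split, none of them past the rule as reported. No paired analysis was possible because all cells come from 1 library. Foxp3 counts in T cells lay near those in other cells, and with 1 library no difference between groups has a replicate check.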
